A study of Mus musculus with 14 samples.

Results

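The transcripts that mouse embryonic stem cells (mESCs) still held after 8 h without transcription were compared between a METTL14 R255K knock-in line and its wild-type (WT) parent. The comparison took 1 R255K library and 1 WT library, out of 14 samples in the series, and covered every gene with at least 50 counts in either of them. By this rule 11185 of 52459 genes in the count tables were described, and 10405 of them were annotated as protein-coding. The untreated (0 h) libraries were left out of the ratio because they differed by GC content. Their values stand beside the 8 h values to show which differences were present before transcription was stopped, and the WT 0 h library also enters the WT change from 0 to 4 h.

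N6-methyladenosine (m6A) is written into mRNA by a nuclear complex in which METTL3 carries the catalytic site and METTL14 holds the RNA. The mark is read in the cytoplasm by YTH-domain proteins, of which YTHDF2 recruits deadenylases and so shortens the life of the transcript. In mESCs many transcripts of developmental regulators carry m6A and are short-lived. Actinomycin D blocks RNA polymerases, so what remains after some hours reports how long each transcript lasts.

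Both lines were E14Tg2a mESCs grown on gelatin with serum and LIF. The R255K line was made by CRISPR-Cas9 knock-in of a lysine codon (AAA) for the arginine codon (AGA) at R255 of METTL14 and came from a single colony, so it is 1 clone. Cells were harvested after 0, 4 or 8 h with 5 µg/ml actinomycin D, which makes 6 libraries with 1 library per genotype and time. The m6A peaks came from untreated cells labelled as the same lines (MeRIP-seq, 2 IP and 2 input libraries per genotype). Whether both experiments used the same culture or subclone is not given in the sources used here. The 8 h libraries held 13812160 counts in WT and 18813640 in R255K, and the 0 and 4 h libraries held between 14983213 and 18598491. With no replicate of any library, differences are given as sizes, with 95% intervals (exact binomial) that cover counting error only, and no p-value is given. The defining mESC transcripts were present in both 8 h libraries: Pou5f1, the central pluripotency factor, had 24209 WT and 21023 R255K counts. Mettl14 itself, whose counts cannot reveal an exchange of 1 codon, had WT counts of 681, 376 and 232 at 0, 4 and 8 h and R255K counts of 299, 280 and 209, a log2 ratio at 8 h of −0.60 (−0.87 to −0.32).

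The sequences below are sites of the m6A core motif GGAC nearest to the strongest WT peak summit in transcripts on which the results turn. They are printed 5′ to 3′ on the transcript's strand from mm10, with the motif in capitals and 12 bases to each side. The first set belongs to transcripts that were higher in the R255K library at 8 h and whose peak was also called in R255K cells. They are Nxt1 at chr2:148675649-148675676 and Hyal2 at chr9:107570415-107570442, both in coding sequence, Kcnk1 at chr8:126029952-126029979 in the 3′UTR, Kcnj3 at chr2:55595050-55595077 and Mrps2 at chr2:28469780-28469807 in coding sequence, and Slc2a1 at chr4:119136913-119136940 and Id3 at chr4:136145027-136145054 in the 3′UTR, all on the plus strand.
Nxt1: caacaaacagcgGGACttcaaccagaac
Hyal2: ttgatgcagccgGGACatctgtgcatgg
Kcnk1: gccatacactggGGACgaatacttgaaa
Kcnj3: gagtgtttagatGGACtagatgacatta
Mrps2: agtgggcattgtGGACaccaactgcaac
Slc2a1: ttccgcaggcctGGACctcggcaccata
Id3: agcccgagagaaGGACtgaacttgggtg

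The second set was also higher at 8 h, but the peak was not called in R255K cells. The sets go by the printed peak only: Zfp36l1 also had 1 kept WT peak, and Kcnj3 of the first set lost 2 of its 3 WT peaks. It holds Vrtn at chr12:84650508-84650535, St6gal2 at chr17:55482236-55482263 and Trp53inp1 at chr4:11169813-11169840 on the plus strand and Zfp36l1 at chr12:80109691-80109718 on the minus strand, all in coding sequence.
Vrtn: ggtgctggtgatGGACatgcttaccacc
St6gal2: cccttggcctggGGACccacagaaatgg
Trp53inp1: cagtggataaaaGGACacagtgaaagac
Zfp36l1: ggattctctctcGGACcacgagggctat

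The third set was lower in R255K at 8 h. It holds Nkx6-3 at chr8:23158519-23158546 (plus strand) and Rapgef3 at chr15:97745337-97745364 (minus strand), whose printed peaks were kept, and Parvb at chr15:84313632-84313659 (plus strand), whose peak was lost. Nkx6-3 also had 1 lost WT peak. All 3 sites lie in 3′UTRs.
Nkx6-3: ctcctccaatagGGACaccagactgggc
Rapgef3: caaggaaaggggGGACattgaggccatg
Parvb: catgaactctcaGGACccagaatgcctt

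After 8 h more genes stood higher than lower in the R255K library. At 2-fold or more, 4097 of 11185 genes were higher (36.6%) and 378 were lower (3.38%), while 6710 lay between. At 4-fold, 1642 were higher and 50 lower. The median log2 ratio of FPKM (counts divided by exon length and by the library total) was 0.56 over all genes tested, against 0.26 at 4 h and 0.08 at 0 h. These ratios are shares of a library of polyadenylated RNA without spike-in RNA, so they show which transcripts held more of the remaining RNA and not how much RNA remained. Another scaling moved all genes together: with TMM factors the median was 0.09 and 2773 genes were higher against 1221 lower, and with median-of-ratios size factors 2545 against 1520. On the library total 91.6% of the 2-fold differences were to the higher side, on TMM factors 69.4% and on median-of-ratios factors 62.6%. Genes and groups are therefore read below against the median of all genes.

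**Figure D1:**
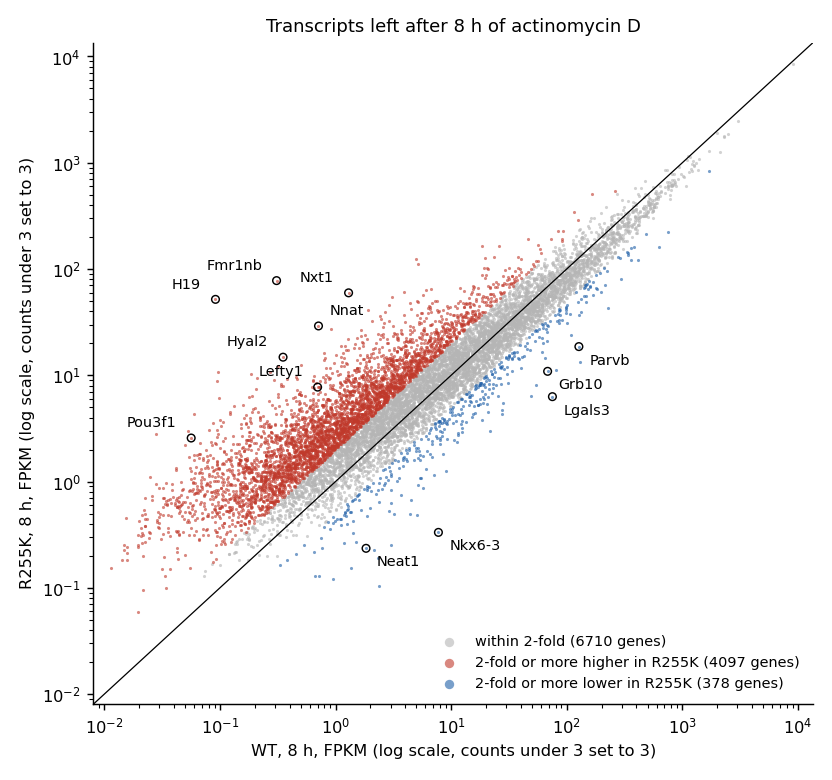
FPKM of each tested gene after 8 h of actinomycin D in the WT library (horizontal, log scale) and the R255K library (vertical, log scale), 1 library each, with counts under 3 set to 3. Red points are the 4097 genes at least 2-fold higher in R255K, blue points the 378 at least 2-fold lower, grey points the 6710 between, and the line marks equal FPKM. The red points lie mostly at low WT levels, and the abundant transcripts at the upper right lie close to the line.

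The minimum of 50 counts in either library lets a gene enter through its higher value alone. Of the 4097 higher genes, 2207 had 50 counts in both libraries, out of 8798 such genes (25.1%). Only 39 tested genes had no WT count at 8 h, 109 had fewer than 3 in WT and 1 gene, Apol9b, had none in R255K. The 4 h libraries, which the ratio at 8 h did not use, ranked the genes alike (Spearman 0.91 across genes, which are not independent replicates). Of the higher genes, 2377 (58.0%) were also at least 2-fold higher at 4 h, beside 22.1% of all tested genes, and 1666 had a 4 h log2 ratio between 0 and 1.

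In WT cells many of these higher genes were lost early. Their median WT change from 0 to 4 h, which uses neither 8 h library, was −0.998 on the log2 scale, against −0.10 over all tested genes. That change is not independent of the ratio, since an early WT fall lowers the WT level by which the 8 h ratio divides. Before treatment the picture was mixed: 1102 of the higher genes (26.9%) were at least 2-fold higher at 0 h too, beside 11.5% of all tested genes, and 1238 (30.2%) had been below the WT level at 0 h. These and later 0 h ratios carry the GC skew of their libraries, with medians from −0.62 at the lowest GC to 0.38 at the highest. The 378 lower genes did not share the early loss in WT. Their median WT change was 0.43 from 0 to 4 h, 261 of them (69.0%) were 2-fold lower at 4 h, beside 3.2% of all genes, and 196 (51.9%) were so at 0 h, beside 8.59%.

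The genes that stood out most, ranked by the end of the counting interval nearest to no difference, fell into 2 kinds, which overlap. For the first kind the WT counts dropped steeply with time under actinomycin D while most R255K counts remained. Nxt1, a cofactor of mRNA export, had WT counts of 984, 141 and 20 at 0, 4 and 8 h and R255K counts of 2122, 1740 and 1253. Its level at 8 h was 46.0-fold higher in R255K, a log2 ratio of 5.52 (4.89 to 6.24), and the log2 ratio had been 1.26 at 0 h and 3.31 at 4 h. Hyal2, a hyaluronidase, ran from 772 through 118 to 16 counts in WT and from 1730 through 1213 to 917 in R255K. Its ratio widened in the same way, from 1.32 at 0 h to 3.05 at 4 h and 5.39 (4.69 to 6.21) at 8 h. Pcdh1, a protocadherin of cell adhesion, had 159, 62 and 16 WT counts and 999, 852 and 845 R255K counts, with a log2 ratio of 5.28 (4.57 to 6.09) at 8 h and 2.81 at 0 h. Each of these 3 transcripts carried a WT m6A peak on its exons, with 1 on Nxt1, 2 on Hyal2 and 5 on Pcdh1.

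Kcnk1 and Kcnj3, which encode potassium channels, and Vrtn and St6gal2 were low in WT from the start and nearly gone at 8 h. Kcnk1 had 111, 26 and 2 WT counts and 759, 608 and 447 R255K counts, which with the WT count raised to 3 is a log2 ratio of 6.77 (interval of the counts as measured 5.50 to 10.41). Vrtn, a regulator of the number of vertebrae, had WT counts of 28, 5 and 1 and R255K counts of 706, 454 and 293, a log2 ratio of 6.16 on the same terms (5.26 to 13.06). Kcnj3 had 35, 3 and 0 WT counts and 197, 175 and 126 R255K counts. St6gal2, a sialyltransferase, had 19, 5 and 0 against 110, 185 and 122. With no WT count left, Kcnj3 was at least 30.8-fold and St6gal2 at least 29.9-fold higher in R255K (floor of 3 counts in the WT library). All 4 transcripts carried WT peaks, and their 8 h ratios lay above those at 0 h. The log2 ratios at 0 h were already 2.93 for Kcnk1, 4.81 for Vrtn, 2.65 for Kcnj3 and 2.69 for St6gal2. Much of the difference in these genes was thus present before treatment.

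For the second kind, WT counts were low at every time and most of the difference was already present at 0 h. Fmr1nb, an X-linked gene next to Fmr1 that is active in testis, had WT counts of 5, 4 and 4 and R255K counts of 954, 1274 and 1371. It was 252-fold higher at 8 h, a log2 ratio of 7.98 (6.62 to 9.85), with 8.00 at 4 h and 7.73 at 0 h. Nnat, an imprinted gene for the membrane proteolipid neuronatin, had 19, 20 and 18 WT counts and 832, 888 and 1002 R255K counts, with a log2 ratio of 5.35 at 8 h. Neither Fmr1nb nor Nnat had a WT peak. Plagl1, an imprinted zinc-finger factor, had no count in any WT library and 159, 464 and 409 in R255K, at least 100.1-fold higher at 8 h.

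Nxf3, an X-linked relative of the mRNA export factors, had WT counts of 5, 9 and 4 and R255K counts of 189, 538 and 505, a log2 ratio of 6.53 (5.17 to 8.42). Usp26, an X-linked ubiquitin protease of testis, had 1 WT and 233 R255K counts at 8 h, with a log2 ratio of 5.83 after raising the WT count to 3 (4.93 to 12.73). Tmem54, Gal3st1, the sulfatide sulfotransferase, and Gm21761 had no WT count at 8 h. They were at least 35.0-fold, 34.3-fold and 33.0-fold higher. Among the 15 protein-coding genes named on the higher side, 9 carried a WT peak and 6 did not, and the smallest log2 ratio at 0 h among them was 1.26, so each differed by 2-fold before the drug was added.

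**Figure D2:**
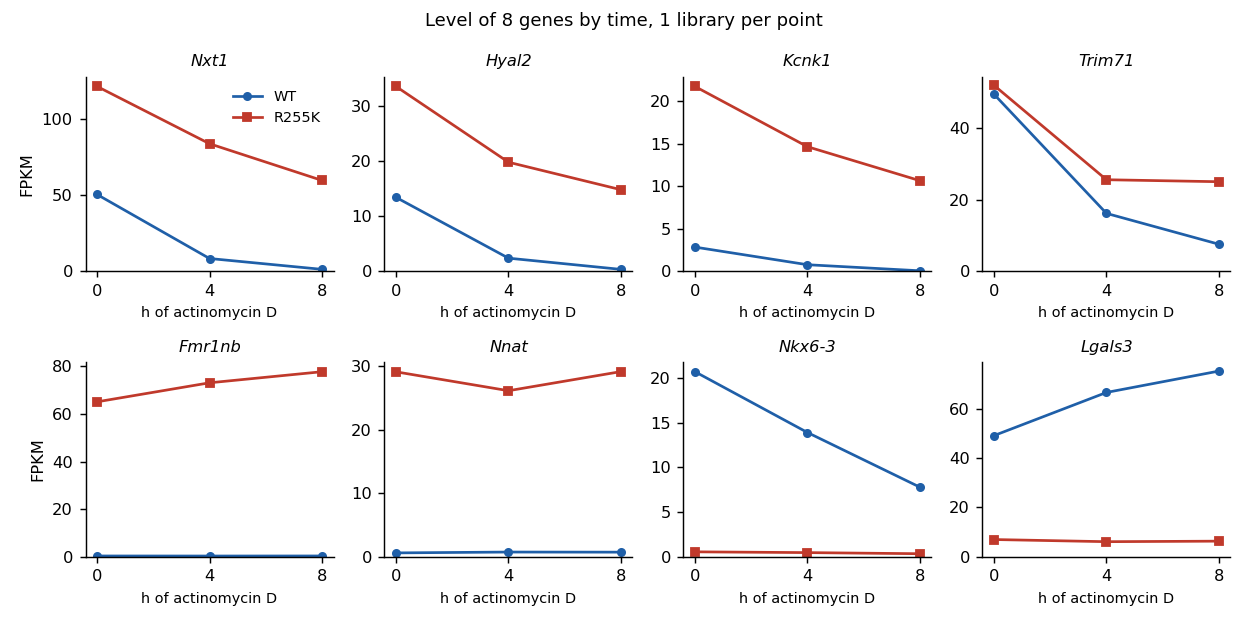
FPKM (vertical, linear, from 0) against hours of actinomycin D for 8 genes, with WT as blue circles and R255K as red squares and 1 library per point. Nxt1, Hyal2, Kcnk1 and Trim71 fall faster in WT than in R255K, whereas Fmr1nb and Nnat in R255K, and Lgals3 in WT, stay level or gain share. Nkx6-3 falls in WT from a level it never had in R255K.

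On the lower side each of the 15 named protein-coding genes was at least 2-fold lower at all 3 times, with log2 ratios at 0 h between −5.25 and −1.53. Nkx6-3, a homeobox factor, had WT counts of 808, 466 and 240 and R255K counts of 19, 19 and 14, a log2 ratio of −4.55 (−5.44 to −3.77) at 8 h and −5.25 at 0 h. In WT its counts dropped with time, whereas the R255K counts were too few to show a course. Apol9b, of the apolipoprotein L family, had 123, 69 and 51 WT counts and none in R255K, a log2 ratio of −4.53 or lower at 8 h (floor of 3 R255K counts).

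Most other transcripts of this side were stable. Lgals3, the lectin galectin-3, had WT counts of 1587, 1852 and 1930 and R255K counts of 202, 210 and 220, with a log2 ratio of −3.58 (−3.79 to −3.38). Sept1, a septin, stood at 4990 WT and 686 R255K counts at 8 h (log2 ratio −3.31), and Parvb, an adaptor of focal adhesions, at 7771 and 1547 (−2.77). In both genes the WT counts were higher at 8 h than at 0 h although transcription was blocked, since each value is a share of the transcripts that remained. Rapgef3, which encodes a cAMP sensor that activates Rap, was the exception with 518, 308 and 206 WT counts against 44, 31 and 23 (−3.61).

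The remaining genes of this side were the alcohol dehydrogenase Adhfe1 (−3.59), the collagen gene Col5a3 (−3.25), the microtubule regulator Stmn3 (−2.87), the stress protein gene Nupr1 (−2.82), the F-box gene Fbxo2 (−2.76), the apoptosis factor Xaf1 (−2.74), Uap1l1 (−2.66), the imprinted adaptor Grb10 (−2.65) and the calcium pump Atp2a3 (−2.55), all log2 ratios at 8 h. Grb10 had 8581 WT and 1863 R255K counts, the largest number of reads behind any ratio of this group. Of the 15 genes, 9 carried a WT peak and 6 did not.

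Among genes not annotated as protein-coding, the imprinted long noncoding RNA H19 was at the top. It had no count in any WT library and 1603, 1787 and 2312 in R255K, at least 566-fold higher at 8 h (floor of 3 WT counts). Zscan4a, of a family of near-identical genes active in the 2-cell embryo whose reads may be split among the copies, had none in WT and 24, 61 and 67 in R255K. Fam58b and Fam46b, whose symbols were not matched in the annotation, and the antisense transcript Lrp8os2 had log2 ratios of 4.94, 4.78 and 4.74, on 5, 2 and 3 WT counts. For Fam46b the WT count was raised to 3, and the intervals of the 3 genes began at 3.69, 3.47 and 3.15. On the lower side, Neat1, the scaffold RNA of nuclear paraspeckles, had WT counts of 1419, 622 and 527 and R255K counts of 125, 79 and 92, with a log2 ratio of −2.96 (−3.30 to −2.64). Halr1, an RNA from the Hoxa region, had 661 WT and 119 R255K counts at 8 h (−2.92). The miR-124 host transcript Mir124a-1hg (−3.13), Platr15 (−3.39) and Gm9242 (−3.17) rested on 90, 54 and 66 WT counts and on 14, 7 and 10 R255K counts.

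The genes that the study follows individually did not all stand on the higher side. The study measured other properties of them. It reported less m6A on each by MeRIP-qPCR, and more stable RNA in R255K for Klf4, Smad6 and Smad7 after actinomycin D. A ratio of levels at 8 h is not a measure of stability, since it also carries the level at the start. Klf4, a pluripotency factor, had WT counts of 4220, 158 and 100 and R255K counts of 1547, 317 and 135. Its log2 ratio was −1.29 at 0 h, 0.69 at 4 h and −0.01 (−0.40 to 0.37) at 8 h. On the library total that interval spans 0, and it lies wholly below the median of all genes. With median-of-ratios factors the log2 ratio of Klf4 was −0.57. Nedd4, a ubiquitin ligase, was among the stable transcripts with 46278 WT and 32022 R255K counts and a log2 ratio of −0.98 (−0.998 to −0.957). Zfp36l1, a protein that binds AU-rich elements and promotes decay, had 99 WT and 280 R255K counts and a log2 ratio of 1.05 (0.72 to 1.40), although it had been lower at 0 h (−0.96).

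Gas2l3, which links actin and microtubules, had 553, 106 and 43 WT counts and 441, 304 and 230 R255K counts, with ratios of −0.17, 1.21 and 1.97 (from 1.499 to 2.479). Trim71, an RNA-binding ubiquitin ligase of early development, began level (0.07 at 0 h) and reached 0.66 and 1.73 (1.63 to 1.83), on 974 WT and 4398 R255K counts at 8 h. In these 2 genes the ratio was near 0 at 0 h and widened by 8 h, though the 0 h ratio carries the GC skew of its libraries. Smad7, an inhibitor of TGFβ signalling, had 82 and 210 counts and a log2 ratio of 0.91 (0.54 to 1.30). Smad6, the inhibitor of BMP signalling, had 3 WT and 46 R255K counts at 8 h, a log2 ratio of 3.49 (1.86 to 5.82), and fell below the minimum of 50.

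The number of WT m6A peaks on a gene went with its 8 h ratio. In WT cells 17693 peaks were called and in R255K cells 9437, and 7717 of the WT peaks overlapped an R255K peak (here called kept) while 9976 did not (lost). The 4698 tested genes without a WT peak on their exons had a median log2 ratio of 0.06, and 19.8% of them were 2-fold higher. With 1, 2, 3, 4 and 5 or more peaks the medians were 0.75, 1.20, 1.35, 1.45 and 1.41, and the shares of genes 2-fold higher were 41.1%, 56.9%, 62.4%, 64.7% and 65.0%. The gain was largest from 0 to 2 peaks, and no further step was seen from 3 peaks on.

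Lower genes ran the other way, from 5.28% of genes without a peak to 0.61% of those with 5 or more. At 4 h the medians were 0.01, 0.36, 0.56, 0.69, 0.73 and 0.63, smaller throughout and again lowest without a peak. At 0 h they were 0.14, 0.09, 0.04, −0.09, −0.09 and −0.56, so that peak number did not go with a higher level before treatment. Genes with at least 3 peaks exceeded genes with none by 1.31 at 8 h. Of all higher genes 77.3% carried a WT peak, of lower genes 34.4% and of all tested genes 58.0%.

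**Figure D3:**
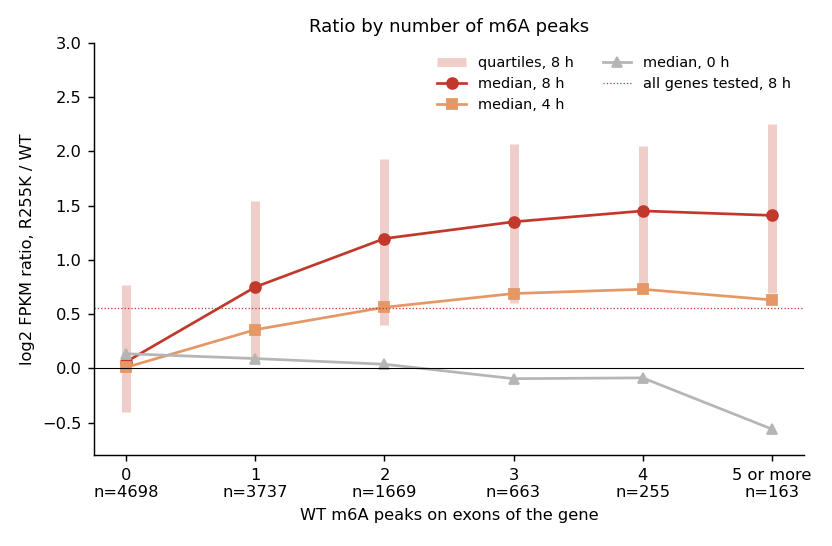
Log2 FPKM ratio (R255K over WT) against the number of WT m6A peaks on the exons of a gene, with the number of genes in each class below the axis. Red circles are 8 h medians with quartile bars, orange squares 4 h medians, grey triangles 0 h medians, and the dotted line is the 8 h median of all genes (0.56). The 8 h medians climb from 0.06 without a peak to 1.45 with 4 peaks, while those at 0 h do not.

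Genes with kept peaks and genes with lost peaks both stood above the median of all genes. Genes whose WT peaks were all kept (2818) had a median of 0.95, genes whose peaks were all lost (2109) one of 0.71, and genes with both (1560) one of 1.30. Among genes with 1 peak, 44.2% of the 2077 with a kept peak and 37.2% of the 1660 with a lost peak were 2-fold higher (medians 0.85 and 0.62). Kept peaks were also the stronger ones, with a median fold enrichment of 7.47 against 4.48 for lost peaks.

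Within 5 equal classes of fold enrichment the order of kept and lost did not hold. In the weakest class the medians were −0.05 for kept and 0.29 for lost peaks, then 0.49 and 0.58, 0.83 and 0.84, 0.95 and 1.08, and in the strongest class 1.30 and 0.93. Lost peaks thus went with the higher median in 4 of 5 classes. The enrichment itself went with the ratio: over 5 equal classes of the highest WT fold enrichment on a gene the medians were 0.29, 0.80, 1.03, 1.30 and 1.40. The 410 genes that had a peak in R255K cells alone had a median of −0.20, and 8.54% of them were 2-fold higher.

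The place of the peak also went with the ratio. Of genes with 1 peak, those with the summit in coding sequence (1402 genes) had a median of 1.09, and those with the summit in the 3′UTR (1772 genes) one of 0.64. The GGAC motif, searched as these 4 letters on the transcript strand in the 201 bases around each summit, was found at 79.5% of 10623 exonic summits. It stood at 84.4% of kept and 73.5% of lost summits. By contrast its share barely moved with the 8 h ratio, with 79.3% at summits of higher genes, 78.0% at those of lower genes and 79.8% at those between. Presence of the motif near the summit therefore did not separate transcripts by how they differed.

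How fast a transcript was lost in WT cells went with the 8 h ratio more than peak number did. Tested genes were split into 5 equal classes by their WT change from 0 to 4 h, a measure that uses neither 8 h library. It is not independent of the ratio, since an early WT fall lowers the WT level by which the ratio divides. The class of largest fall had a median WT FPKM of 0.64 at 8 h, against 4.10 over all tested genes. Its genes could thus more easily meet the minimum of 50 counts through R255K alone. In the class with the largest fall (beyond −1.18 on the log2 scale) the median 8 h ratio was 1.80 and 79.4% of genes were 2-fold higher. The next classes had medians of 1.12, 0.49, 0.04 and −0.30, and 56.2%, 25.3%, 12.6% and 9.66% of their genes were 2-fold higher.

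Within these classes the peaks added less. In the class of largest fall the median was 1.37 without a peak and 1.82, 1.84 and 1.82 with 1, 2 and 3 or more. In the next the medians were 0.92, 1.13, 1.28 and 1.22, then 0.36, 0.55, 0.58 and 0.64, and then −0.01, 0.10, 0.13 and 0.21. In the last class they were −0.33, −0.18 and −0.18, with 0.61 for the 10 genes of 3 or more peaks. The difference between genes with at least 3 peaks and with none came to 0.45, 0.31, 0.28 and 0.22 in the first 4 classes, against 1.31 over all genes. Short-lived transcripts without any called peak were therefore also higher in the R255K library. A slower loss of short-lived transcripts at large in this 1 library and an effect of the peaks cannot be told apart.

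**Figure D4:**
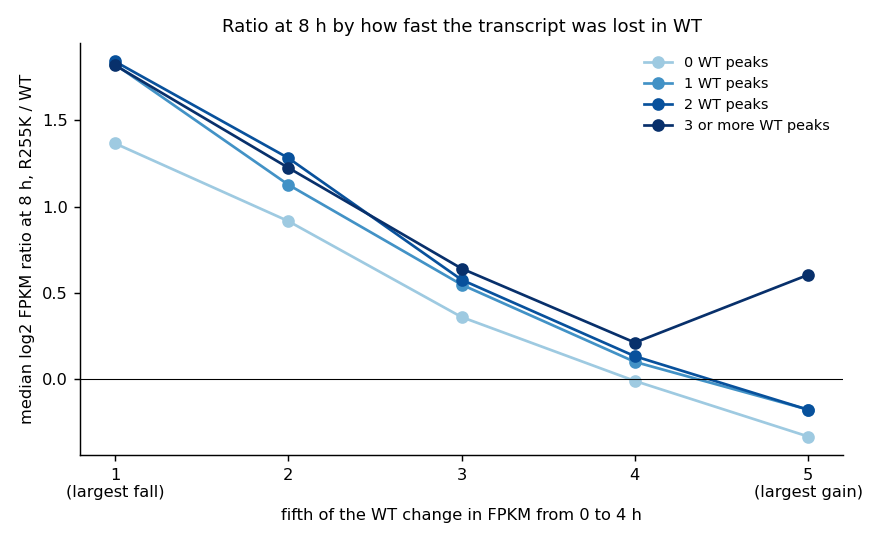
Median log2 FPKM ratio at 8 h (R255K over WT) against the class of the WT change in FPKM from 0 to 4 h (5 equal classes), from the largest fall (left) to the largest gain (right), with 1 line for genes with 0, 1, 2 and 3 or more WT peaks. The lines fall from left to right, except that the line for 3 or more peaks rises at its right-hand point, which rests on 10 genes. The line for 0 peaks runs lowest.

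Other features of the transcripts moved with the ratio as well. Over 5 equal classes of exon length the medians ran in order through 0.10, 0.47, 0.61, 0.70 and 0.89, and over 5 classes of 3′UTR length from 0.24 to 1.05. The 687 genes with a single exon block had a median of −0.21. The AU-rich sequence TATTTAT in the 3′UTR, on the transcript strand, went with higher ratios both without and with peaks. Without a peak the medians were 0.06, 0.32 and 0.50 for 0, 1 and 2 or more copies, and with a peak 0.86, 1.21 and 1.30. AU-rich elements mark many unstable mRNAs.

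GC content had no such order at 8 h. Over 10 equal classes of exon GC the medians lay between 0.44 and 0.76, with the lowest GC at 0.76 and the highest at 0.70. At 0 h they ran from −0.62 at the lowest GC to 0.38 at the highest, which is why those libraries were not used for the ratio. Processed pseudogenes (423 genes) had a median of −0.33 and 5.20% of them were 2-fold higher, and their reads may be shared with the parent genes. Of 71 long intergenic noncoding RNAs 36.6% were higher and 12.7% lower. By chromosome, the 944 genes on chromosome 11 had a median of 0.97 at 8 h, 0.75 at 4 h and 0.60 at 0 h, while the other nuclear chromosomes lay between 0.37 and 0.68 at 8 h. The excess on chromosome 11 was thus present before treatment, and without that chromosome the median over all genes was 0.51.

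Functional groups spread widely. In the plot of lists, the BMP, Nodal, p53 and Wnt lists lay farthest above the median of all genes (0.56), and ribosomal protein, respiratory chain and mitochondrial genome genes farthest below it. Another scaling shifts all genes by 1 constant and leaves the order of the lists as it is, but 11 lists changed sign with TMM and 13 with median-of-ratios factors. With 50 counts required in both libraries, 9 lists crossed to the other side of the median of all genes (then 0.285), the formative, LIF, cyclin, DNA methylation and m6A reader lists among them. Counts of list members past 2-fold are to be read beside the 36.6% of all genes that were higher and the 3.38% that were lower.

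**Figure D5:**
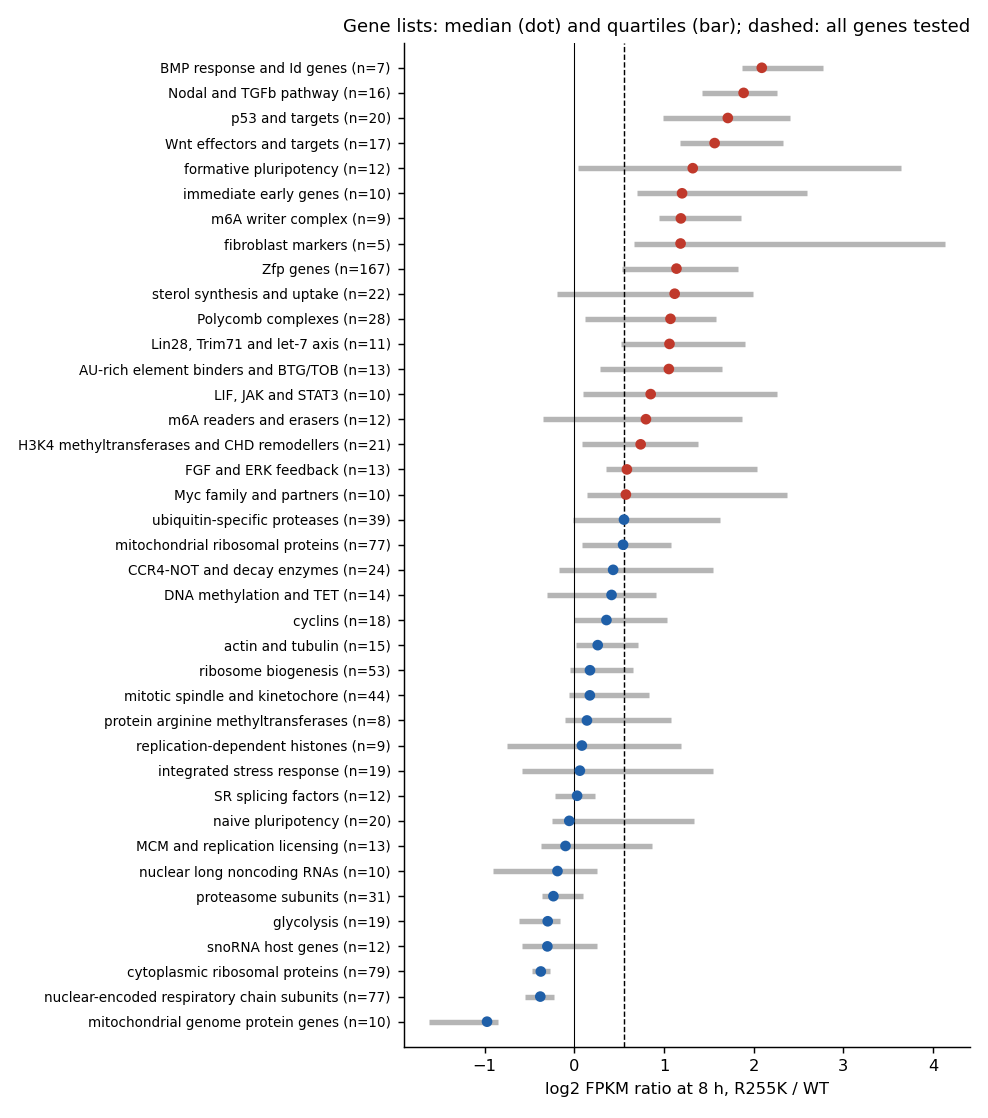
Median log2 FPKM ratio at 8 h (R255K over WT, dots) with quartiles (bars) for gene lists with at least 5 tested genes. Red dots lie above and blue dots below the median of all genes (dashed line, 0.56), from 2.09 for BMP response and Id genes to −0.97 for genes of the mitochondrial genome.

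The BMP, Nodal and Wnt lists stood high. All 7 tested genes of the BMP response were 2-fold higher, with a median of 2.09. Bmpr2, the type II BMP receptor, had 28 WT and 286 R255K counts at 8 h (log2 ratio 2.91) although it had been lower at 0 h (−0.72). Id3, an inhibitor of differentiation factors that BMP induces, had 71 and 680 counts (2.81), and was also higher at 0 h (2.29). Smad5, which carries the BMP signal to the nucleus, had 89 and 426 counts (1.81), and Id1 had 596 and 1711 (1.08). Another 6 genes of the list were too low to be tested, and Bmpr2 met the minimum of 50 through R255K alone. All 7 tested genes carried a WT peak, and their median WT change from 0 to 4 h was −1.56. In the class of largest WT fall, 79.4% of all tested genes were 2-fold higher.

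In the Nodal and TGFβ list 14 of 16 tested genes were 2-fold higher and none lower (median 1.89). Lefty1, a secreted Nodal inhibitor, had WT counts of 700, 47 and 17 and R255K counts of 1607, 472 and 256 (3.47 at 8 h). Skil, a repressor of SMAD activity, had 59 and 632 counts at 8 h (2.98). The 2 members short of 2-fold were the type I receptor gene Acvr1b, with 107 and 256 counts (0.81), and Tdgf1, the Nodal co-receptor, with 4668 and 5552 (−0.20). Of the Wnt list 14 of 17 were higher and none lower (median 1.56). The effector Lef1 had 7 and 97 counts (3.35) and the target T, the mesodermal factor Brachyury, 5 and 61 (3.16). Lef1 and T met the minimum of 50 through R255K alone. The stable Wnt transducer Ctnnb1 had 20064 and 20668 counts (−0.40), and the repressor Tcf7l1 358 and 384 (−0.34).

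The FGF and ERK feedback genes spread widely, with 5 of 13 higher, 1 lower and a median of 0.59. Dusp4, a phosphatase of ERK, had 16 and 208 counts (3.25). Spry2, an inhibitor of FGF receptor signalling, was the lower member with 111 and 66 (−1.20). Both are short-lived, from 475 to 35 and from 2920 to 136 WT counts between 0 and 4 h, so a short life did not fix the direction. Of the LIF, JAK and STAT3 list 5 of 10 were higher. Socs1, the JAK inhibitor, had 1 WT and 61 R255K counts at 8 h, which with the WT count raised to 3 is a log2 ratio of 3.90 (2.95 to 10.81). The kinase gene Pim1 had 37 and 291 counts (2.53). The JAK kinases Jak1 and Tyk2, which were stable, stood at −0.27 and −0.39.

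Lists of stress and growth regulators differed from each other. Of the p53 list 15 of 20 tested genes were higher and none lower (median 1.71). Plk2, a polo-like kinase, had 9 and 163 counts at 8 h (3.73), and Trp53inp1, a p53-induced promoter of cell death and autophagy, had 1215, 356 and 54 in WT and 559, 1158 and 612 in R255K. The ratio of Trp53inp1 turned from −0.96 at 0 h to 3.06 (2.65 to 3.49) at 8 h. The p53 inhibitor gene Mdm4 (−0.23) and the apoptosis gene Bax (−0.39) lay near or below 0. Among immediate early genes 7 of 10 tested genes were higher and 1 lower (median 1.20). Another 12 genes of that list were too low to be tested. Btg2, an antiproliferative adaptor of deadenylation, had 11 and 122 counts (3.03), and Egr1 had 10 and 104 (2.93). Junb, the lower member, had 74 and 36 (−1.49). Btg2 and Egr1 met the minimum count through R255K alone, and Junb met it through WT alone.

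Of the Myc family and partners 4 of 10 were higher (median 0.58). Mycn had WT counts of 3520, 125 and 72 and R255K counts of 8467, 1960 and 1122, a log2 ratio of 3.52 (3.17 to 3.88). Mga, a MAX partner that represses germline genes, had 128 and 1090 at 8 h (2.64) after −1.43 at 0 h. The list of the integrated stress response had 7 higher and 3 lower members out of 19, with a median of 0.06. It ran from Nupr1, named above, to Cebpb, a stress-responsive bZIP factor, with 5 and 54 counts (2.99).

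Zinc-finger genes, Polycomb genes and H3K4 regulators had medians above that of all genes, and DNA methylation genes one below it. Of 167 tested genes whose symbol is Zfp and a number, most of them zinc-finger repressors, 91 (54.5%) were 2-fold higher and none lower, with a median of 1.14. A WT peak stood on 156 of the 167, and another 207 such genes in the files were too low to be tested. The median WT FPKM of the tested ones at 8 h was 0.73, against 4.10 over all tested genes. Such genes could thus more easily meet the minimum of 50 counts through R255K alone, and a gene that did so cannot be 2-fold lower. Zfp951 had no WT and 53 R255K counts at 8 h, and Zfp637 had 7 and 112 counts (3.55). At the other end, Zfp57, which maintains imprints, had 3199 and 2613 counts (−0.74) and Zfp934 64 and 45 (−0.95).

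Of the Polycomb list 15 of 28 were higher and 1 lower (median 1.07). Cbx2, a chromodomain subunit, had WT counts of 902, 190 and 62 and R255K counts of 1670, 1064 and 804 (3.25), and the corepressor gene Bcor had 48 and 555 at 8 h (3.09). Eed, a core subunit of PRC2, was the lower member with 1581 and 1051 counts (−1.03), and Phf19 stood at −0.84. Of the H3K4 methyltransferases and CHD remodellers 10 of 21 were higher (median 0.74), led by Chd7 with 71 and 872 counts (3.17). Chd9 had WT counts of 2180, 407 and 89 and R255K counts of 713, 1389 and 1039, so that its ratio went from −1.46 to 3.10. The subunit gene Wdr5, stable in WT, stood at −0.72.

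Among DNA methylation and TET genes 3 of 14 were higher (median 0.42). Tet1, a 5-methylcytosine dioxygenase, had WT counts of 13946, 5090 and 1343 and R255K counts of 3147, 7264 and 6071. It had been lower by 1.99 at 0 h and was higher by 1.73 (1.65 to 1.82) at 8 h. Its paralog Tet2 was lower at all 3 times, with 359 and 282 counts at 8 h (−0.79) after −2.94 at 0 h. For both genes the ratio was higher at 8 h than at 0 h, and Tet1 alone of the pair crossed to the higher side.

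Genes of the m6A machinery were among the higher ones. Of the 9 writer genes 6 were 2-fold higher and none lower, with a median of 1.19. Wtap, the adaptor of the complex, had WT counts of 2837, 639 and 203 and R255K counts of 1887, 1799 and 1171, a log2 ratio of 2.08 (1.87 to 2.30). Cbll1 (HAKAI) had 22 and 136 counts at 8 h (2.18) and Rbm15b, which recruits the complex to RNA, 273 and 1210 (1.70). Mettl16, a separate m6A methyltransferase, had 1053 and 5207 counts (1.86). The remaining writer genes were Virma (1.19), Zc3h13 (1.17), Rbm15 (0.94), the catalytic subunit gene Mettl3, with 212 and 486 counts (0.75), and Mettl14, given above, as the lowest. Of readers and erasers 6 of 12 were higher and 1 lower. The demethylase gene Alkbh5 had 142 and 1601 counts (3.05) and the reader gene Ythdf2 115 and 1149 (2.87). The reader gene Igf2bp3, whose protein is known to stabilise mRNA, had 1186 and 377 (−2.10), and at 0 h it had been as low (−1.999).

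Other RNA regulators were divided. Among AU-rich element binders and BTG/TOB genes 7 of 13 were higher (median 1.05), led after Btg2 by Zfp36l2, a decay-promoting zinc-finger protein, with 34 and 274 counts (2.56). Hnrnpd (AUF1) and Tia1 stood at −0.72 and −0.75. In the Lin28, Trim71 and let-7 list 7 of 11 were higher (median 1.06). Lin28b, a blocker of let-7 maturation, had 129 and 953 counts (2.44) after −0.57 at 0 h, and Zcchc11, a uridylyltransferase that works with LIN28, had 65 and 389 (2.14). Hmga2, a chromatin protein repressed by let-7, had 860 and 440 (−1.41). CCR4-NOT and decay enzymes had a median of 0.43 with 8 of 24 higher, and protein arginine methyltransferases one of 0.14 with 2 of 8 higher. Prmt1, which encodes the main enzyme of arginine methylation, stood at −0.33 on 12778 and 13882 counts.

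Metabolic groups differed from each other. Of the sterol list 12 of 22 were higher and none lower (median 1.12): Cyp51, lanosterol demethylase, had 118 and 913 counts (2.51), while Mvk, mevalonate kinase, had 730 and 691 (−0.53). Glycolysis genes had a median of −0.30, with 2 of 19 higher. These were the glucose transporter gene Slc2a1, with WT counts of 6277, 1205 and 293 and R255K counts of 7268, 5030 and 4223 (3.40), and the hexokinase gene Hk2, with 988 and 4191 at 8 h (1.64). Both were short-lived in WT, whereas Ldhb, with 5361 and 3739 counts at 8 h, stood at −0.97.

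Mitochondrial ribosomal proteins stood at the median of all genes (0.54), with 23 of 77 higher and none lower. Mrps2, a protein of the small subunit, had WT counts of 1853, 405 and 116 and R255K counts of 2873, 2779 and 2491 (3.98), and Mrpl43 had 113 and 1494 at 8 h (3.28). By contrast Mrps15 and Mrpl13 were stable and stood at −0.40 and −0.41. Proteins of 1 complex thus had transcripts on both sides of the median.

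Stable housekeeping transcripts differed little. None of the 79 cytoplasmic ribosomal protein genes was past 2-fold. Their median was −0.37, and they ranged from −0.68 for Rps29 to 0.85 for Rpl34. They took 7.08% of all counts in the WT library and 5.48% in R255K. Nuclear-encoded respiratory chain subunits had a median of −0.38, with none of 77 higher and 1 lower. That gene, Ndufa12, had 1156 WT and 509 R255K counts at 8 h (−1.63) after a log2 ratio of 0.03 at 4 h. Proteasome subunits (median −0.23), SR splicing factors (0.03) and ribosome biogenesis genes (0.17) held between 0 and 8 members past 2-fold. Rrs1, a ribosome assembly factor, led the last list with 184 and 1619 counts (2.69).

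Transcripts of the mitochondrial genome, which are made by a polymerase of their own, had a median of −0.97, with 5 of 10 lower. They ran from mt-Atp6, with 107 and 37 counts (−1.98), and mt-Nd2, with 4257 and 1566 (−1.89), to mt-Co1, with 42744 and 55251 (−0.08). Among snoRNA host genes, Gas5 was the lowest with 124 and 68 counts (−1.31), and the list had 2 of 12 higher and 1 lower.

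The pluripotency factors were spread across the range. Of the 4 core factors only Sall4 was 2-fold higher, with WT counts of 6343, 885 and 503 and R255K counts of 6122, 2597 and 3094 (2.17). Nanog had 2763 and 6417 counts at 8 h (0.77), Sox2 294 and 286 (−0.49) and Pou5f1, given above, −0.65. Sox2 was short-lived in both lines, going from 8244 to 493 WT counts and from 5864 to 492 R255K counts between 0 and 4 h. The naive list had 7 higher and 3 lower members of 20 (median −0.06). Klf2 had 60 and 348 counts at 8 h (2.09) from a level start (−0.03 at 0 h). The germ-cell and naive marker Dppa3 had 32 and 413 (3.24) with a larger gap at 0 h (4.10), and Tcl1 had 3286 and 1282 (−1.80).

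The formative list, genes that come up as cells leave the naive state, had a median of 1.32 with 6 of 12 higher and none lower. With 50 counts required in both libraries its median was 0.02, below that of all genes, and Pou3f1 and Otx2 met the minimum of 50 through R255K alone. Pou3f1 (OCT6) had WT counts of 373, 19 and 2 and R255K counts of 1350, 273 and 186, a log2 ratio of 5.51 after raising the WT count to 3 (4.22 to 9.15). Otx2 had 2 and 58 counts at 8 h, which on the same terms is 3.83 (2.49 to 7.49). Both were 4-fold or more higher at 0 h (2.01 and 2.35). Foxd3 stood at −0.03, after −0.26 at 0 h, and the stable Tead2 at −0.41.

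Markers of other cell types ranged from absent to well expressed. In bulk RNA a change in the number of cells of a type and a change in RNA per cell cannot be told apart. Of the 10 endoderm markers none reached the minimum, and their summed FPKM at 8 h was 0.561 in WT and 0.706 in R255K. Of 9 mesoderm markers only T was tested, with 4 at 0 in WT and 1 in R255K and a sum of 0.403 and 4.15 FPKM. Ectoderm markers summed to 117 and 180.0 FPKM. The neuronal tubulin gene Tubb3 had 2935 and 6034 counts (0.59), Nes had 186 and 859 counts (1.76) and Pax6 had 18 and 57 (1.22).

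The 2-cell-like markers were absent from WT, with 9 of 9 at 0 counts at 8 h, and summed to 11.9 FPKM in R255K, where none was at 0. Zscan4d had WT counts of 0, 2 and 0 and R255K counts of 47, 97 and 121, and Zscan4c 58 at 8 h. Trophoblast markers summed to 15.5 and 59.3 FPKM, with the keratin genes Krt18 at 25 and 455 counts (3.74) and Krt8 at 338 and 1273 (1.47). Of the fibroblast list Col1a1 had 6 and 226 counts (4.79) and Col1a2 6 and 143 (4.13), whereas Vim had 4304 and 2410 (−1.28), and the list summed to 68.8 and 35.6 FPKM. The part of such cells in the ratios above was not tested.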

How the data were processed

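The authors removed rRNA reads with Bowtie2 2.2.6, placed the remaining reads on mm10 by HISAT2, and used Picard 2.16.0 and SAMtools 0.1.09, per the labels. With Picard and SAMtools they kept only unique reads of high mapping quality, according to the study. They deposited whole-number read counts per gene, without normalization, for the 6 libraries of the actinomycin D time course. The counting tool, its annotation and its use of strand are not given in the sources used here, so reads of overlapping genes on opposite strands cannot be told apart. For MeRIP-seq the authors called peaks with MACS2, 1 list per genotype. Each deposited list holds the fold enrichment over local background (a ratio, used here) and −log10 p and q columns, deposited by the authors and not used for any value. The read depth behind the peaks is unknown.

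Library totals were between 13812160 and 18813640 counts. Counts were divided by the library total and by the exon length deposited with the counts to give FPKM. GENCODE vM21 gave the biotypes, coding sequences and 3′UTRs only. The contrast was R255K 8 h against WT 8 h for genes with at least 50 counts in either library, with counts under 3 set to 3 per library and no pseudocount. The 95% intervals are exact (Clopper-Pearson) intervals of the share of a gene's counts that came from R255K. Reads were not counted by molecule, so intervals and floors cover counting error only. Genes with a log2 ratio of 1 or more, or −1 or less, were counted as higher or lower. With 1 library per genotype and time no test was possible. Symbols of 135 tested genes were not matched in GENCODE and have no biotype.

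A WT peak was assigned to each gene with an exon that it overlapped, on either strand, and was kept if it overlapped an R255K peak by at least 1 bp. Peak summits were used only for the place of the peak and for the motif search. Named are, in each direction, the 15 protein-coding and the 5 other genes whose interval end nearest 0 lay farthest from 0, up to 4 extreme members of each of 45 gene lists, the genes that the study names, and the m6A writer genes. No member of the endoderm list reached the minimum. The comparison, the gene lists and the alternatives were chosen with earlier results of these data known. The script was tested on simulated data. Python 3.11.15 with numpy 2.4.6, pandas 2.3.3, scipy 1.17.1, statsmodels 0.14.6, pysam 0.24.0 and matplotlib 3.10.9, bedtools 2.31.1, and R 4.3.3 with edgeR 4.0.16 (TMM factors only) and DESeq2 1.42.0 (size factors only) were used. Alternatives were other scalings, minimums, pseudocounts and fold limits, a GC trend (lowess span 0.3), and subsets of genes. The 4 columns of 0 and 4 h entered no 8 h ratio.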

Additional observations from a re-analysis of the deposited data

Results flagged for a closer look

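Gapdh, a reference gene of the study's qPCR, lay on opposite sides at 4 and 8 h. The WT libraries of 0, 4 and 8 h gave it 995, 242 and 2357 counts, the R255K libraries 331, 787 and 1875, which gave log2 ratios of −1.43, 1.39 and −0.78. With 1 library per genotype and time the difference between the times was not tested. Its WT share at 8 h exceeded the WT share at 4 h by 3.40 on the log2 scale. Gapdh had an FPKM of 3.91 in WT and 10.2 in R255K at 4 h, and of 41.3 and 24.1 at 8 h. Only unique reads were kept, and whether this removed Gapdh reads was not tested. These counts do not measure Gapdh in the qPCR assay. Another 2 genes of the lists were picked out because their counting intervals at 4 and 8 h lay on opposite sides of 0, though both ratios were small. mt-Co1, a subunit of cytochrome c oxidase encoded in the mitochondrial genome, had a log2 ratio of −0.0756 at 8 h after 0.13 at 4 h. Etv4, an ETS factor that FGF signalling induces, had 0.0699 at 8 h after −0.09 at 4 h. Neither difference was tested. Among all tested genes 356 had such opposite intervals, 76 of them on the higher side at 4 h, and none was past 2-fold on opposite sides at the 2 times.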

How the results depend on the processing

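No paired analysis was possible because each genotype and time had 1 library, and replicate numbers stand in the labels of the MeRIP-seq samples alone. For the same reason no library could be left out. The scalings, minimums, pseudocounts and subsets below changed the values. No named difference past 2-fold turned to the other side, but medians of lists near 0 changed sign (11 with TMM factors, 13 with median-of-ratios factors). With TMM factors the lower genes numbered 1221 and the median over all genes was 0.0915, with median-of-ratios factors 2545 genes were higher, 1520 lower and the median 0.0044, and with ribosomal protein genes as the scale 5333 were higher, 165 lower and the median 0.93 (97.0% of 2-fold differences to the higher side). With 1 FPKM added, 2243 were higher and 249 lower, the median was 0.37 and the difference between genes with at least 3 peaks and with none was 0.68; with 0.1 FPKM the difference was 1.17. A minimum of 10 counts gave 619 lower genes, a median of 0.68 and a difference of 1.14, a minimum of 200 gave 2507 higher, 251 lower, 0.40 and 1.42, a minimum of 50 in both libraries 2207 higher, 0.28 (0.285) and 1.21, and no minimum 820 lower and 1.12. Without chromosome 11 the median was 0.51, and over protein-coding genes alone it was 0.62. A limit of 1.5-fold gave 1063 lower genes. The peak-number difference was 0.59, 1.02, 1.35 and 0.91 within quartiles of 4 h FPKM and 1.41, 1.44 and 1.10 within 3 equal classes of exon length. Within 5 equal classes of the WT change from 0 to 4 h, an alternative chosen after seeing the data, it was 0.45, 0.31, 0.28, 0.22 and 0.94, and without genes 2-fold higher at 0 or 4 h, also chosen afterwards, 1.02. The cause of these shifts was not tested. With at least 50 counts in all 4 libraries of 4 and 8 h, 41.0% of higher genes were also 2-fold higher at 4 h. After a GC trend was subtracted, 4098 genes were higher and 379 lower. Among named genes, 1819 of their values under the alternatives moved by less than their counting interval and 593 moved further; for lists these numbers were 454 and 69. Under the minimum of 50 counts in both libraries 9 lists stood on the other side of the median of all genes, among them the formative list and m6A readers and erasers. Depth limits the highest ratios most, since they rest on WT counts of 0 to 20.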

Other observations

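Imprinted genes, a list made after H19, Plagl1, Nnat and Grb10 had been seen among the most extreme genes, had extreme members on both sides at 8 h. Of 63 such genes in the files 40 were tested, and 22 were 2-fold higher and 4 lower in R255K, with a median log2 ratio of 1.17. Since the list was chosen on these values, its counts support nothing. Igf2, the growth factor gene beside H19, had 101 WT and 602 R255K counts at 8 h (log2 ratio 2.13). Dlk1, a Notch ligand, had 97 and 915 (2.79), and Peg10, a retrotransposon-derived gene needed in placenta, had 1717 and 20659 (3.14). Its neighbour Sgce stood at 2.92, Ndn at 2.05 and Mest at 1.64. On the lower side with Grb10 (−2.65) were the cell-cycle inhibitor gene Cdkn1c (−1.14), Trappc9 (−1.48) and Copg2 (−1.18).

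Some genes without WT reads in the time course had m6A peaks called in WT cells. Of the tested genes, 31 had at most 3 counts in each of the WT libraries at 0, 4 and 8 h, and 14 of these carried 23 WT peaks on their exons. In R255K cells 9 of the genes carried 14 peaks. Plagl1, with no WT count at any time, carried 5 WT peaks with a fold enrichment of up to 6.78. Emilin2, an extracellular matrix glycoprotein gene, had 3, 1 and 2 WT counts and 3 WT peaks. Kdm5d, a gene on the Y chromosome, had 1, 1 and 2 WT counts, 19, 56 and 52 R255K counts and 1 WT peak. The cells for MeRIP-seq and for the time course were separate samples labelled as the same lines. Whether they were the same culture or subclone is not given, and why peaks and counts differ here was not tested.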
